A study of Mus musculus with 9 samples.

Results

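De novo lipogenesis, the synthesis of fatty acids from carbohydrate carbon, was followed in mouse liver through 10 genes: the enzyme genes Acly, Acss2, Acaca, Acacb, Fasn, Me1 and Pklr, the lipogenic protein gene Thrsp, and the transcription factor genes Mlxipl and Srebf1. The genes were taken by symbol from the array's platform annotation. For 9 of the 10 it gave 1 transcript cluster each, a transcript cluster being the set of probes that reports 1 gene, out of 22206 clusters on the array. Srebf1 was matched to no cluster by symbol or Entrez identifier and was not analysed here. Liver RNA was measured on 9 Clariom S mouse arrays in 3 groups of 3, with 1 array taken as 1 mouse because the design text gives 3 mice per group. The wild-type vehicle group was C57BL/6JHamSlc-+/+ mice given vehicle. The ob/ob vehicle group was C57BL/6JHamSlc-ob/ob mice, which lack functional leptin, given vehicle. The ob/ob extract group was C57BL/6JHamSlc-ob/ob mice given 100 mg/kg of VE, an extract of Vigna umbellata (rice bean). All mice were males, 6 weeks old when obtained, fed standard chow without restriction, and dosed by gavage for 42 days. Both ob/ob groups carry the leptin mutation in every cell and there is no wild-type group given the extract among these samples, so the extract was compared within obese mice only. Whether the mice were fasted before sampling, and at what time of day, is not given in the sources used here.

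In liver, glucose is broken down to pyruvate and then to mitochondrial citrate, which is exported and cleaved to acetyl-CoA by ATP citrate lyase. Acetyl-CoA carboxylase turns acetyl-CoA into malonyl-CoA, fatty acid synthase builds palmitate from it, and malic enzyme supplies part of the NADPH. Transcription of these genes is known to be driven by insulin through SREBP-1c, encoded by Srebf1, and by sugar metabolites through ChREBP, encoded by Mlxipl, and the leptin-deficient ob/ob mouse is a common model of fatty liver.

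The regulators are known to act at the promoters, so the start regions of genes on which the results turn are shown, from RefSeq (GRCm38.p6): 300 bases each, 250 before to 50 after the transcription start, 5′ to 3′ on the gene's own strand. All 10 genes were matched, with 15 windows among them. Capitals mark matches to the motifs searched on both strands. These were the E-box CACGTG, the NF-Y box CCAAT, the GC box GGGCGG, the TATA box TATAAA, the sterol element core TCACNCCA, and the carbohydrate response element CANGNGNNNNNCNCNTG, an E-box-like pair that ChREBP is known to bind, which was added to the search after the sequences had been seen.
Pklr, the window of its second listed start, chr3:89136373-89136672 (+): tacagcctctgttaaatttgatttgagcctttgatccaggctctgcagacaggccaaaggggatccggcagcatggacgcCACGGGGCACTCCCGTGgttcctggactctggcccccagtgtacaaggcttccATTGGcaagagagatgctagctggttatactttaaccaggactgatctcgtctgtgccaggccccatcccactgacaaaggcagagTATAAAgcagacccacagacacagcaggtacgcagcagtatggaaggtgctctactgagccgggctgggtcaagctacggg
Mlxipl, the window of its first listed start, chr5:135089640-135089939 (+): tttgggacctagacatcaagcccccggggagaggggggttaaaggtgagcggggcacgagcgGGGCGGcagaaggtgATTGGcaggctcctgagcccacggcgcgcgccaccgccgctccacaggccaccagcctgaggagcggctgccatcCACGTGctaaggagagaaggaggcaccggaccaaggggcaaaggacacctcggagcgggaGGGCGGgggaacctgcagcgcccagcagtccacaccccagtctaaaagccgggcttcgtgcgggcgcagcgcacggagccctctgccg
Acly, chr11:100527951-100528250 (-): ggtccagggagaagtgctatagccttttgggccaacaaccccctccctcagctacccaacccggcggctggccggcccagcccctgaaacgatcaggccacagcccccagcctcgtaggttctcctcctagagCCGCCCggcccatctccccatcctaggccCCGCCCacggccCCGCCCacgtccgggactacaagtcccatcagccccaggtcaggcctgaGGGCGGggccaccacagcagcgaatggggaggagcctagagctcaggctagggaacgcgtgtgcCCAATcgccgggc
Fasn, chr11:120824498-120824797 (-): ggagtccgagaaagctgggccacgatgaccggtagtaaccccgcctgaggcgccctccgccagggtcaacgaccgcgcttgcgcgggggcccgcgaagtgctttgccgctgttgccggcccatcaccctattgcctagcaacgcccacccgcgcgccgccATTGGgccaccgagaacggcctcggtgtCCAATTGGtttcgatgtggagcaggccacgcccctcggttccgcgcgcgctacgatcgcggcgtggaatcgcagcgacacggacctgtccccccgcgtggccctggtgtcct

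Of the 10 genes, Pklr alone held the carbohydrate response element, 170 bases upstream of its second listed start, and 0.557% of the 32851 RefSeq promoter windows of this length held it. The E-box was found in Mlxipl alone, 98 bases upstream of its first listed start and not in the window of its second, against 7.15% of all windows. NF-Y boxes were found in 9 of the 10 genes and in 10 of their 15 windows, against 37.4% of all windows. Fasn held 3 of these boxes, of which the pair at 62 and 59 bases upstream overlap. GC boxes were found in 5 genes and in 6 of the 15 windows, near the 35.7% of all windows, and Acly held 4 of these boxes. The sterol element core was found in the window of the second listed Mlxipl start only, which is not shown, against 4.36% of all windows, and TATAAA in Pklr and Acacb, against 13.6%. The only window listed for Acaca, which is not shown, held none of these letters, and regions of that gene outside it were not searched. A gene with several starts had more windows than 1 in which a match could fall, and a match describes letters and not a bound site.

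All values are the authors' deposited log2 signals after SST-RMA normalization, a procedure that subtracts background, normalizes arrays to each other and stretches the signal scale, so a difference of 1 need not be a doubling of RNA. Levels of different genes are not compared, because each rests on its own probes. Array medians lay between 5.07 and 5.36. Within its group, an array correlated with the others at 0.980 to 0.990 across clusters, except ob/ob vehicle 3 (0.948 and 0.952) and wild-type vehicle 3 (0.955 with both), whose interquartile ranges were also the narrowest, at 3.26 and 3.01 against 3.36 to 3.85. Of the 8 hepatocyte markers 4 reached the highest value of an array (Alb on all 9 arrays), and the other 4, Cps1, Cyp2e1, Hnf4a and Tat, had a mean level of 14.96 to 16.79. All 5 adipocyte markers measured of 6, Lep among them (2.58 to 3.67), and all 5 lymphocyte markers lay under the upper limit of olfactory receptor clusters, which are silent in liver, on every array (their 97.5th percentile), so fat tissue markers were at background and the Lep signal could not check the genotype. No lipogenesis gene fell in that background range on any array.

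Untreated obese liver was first compared with lean liver. In ob/ob vehicle liver, 3 lipogenesis enzymes rose and the ChREBP gene fell. Pklr was higher by 3.76, Acly by 2.76 and Acaca by 2.04 on the log2 scale, and Mlxipl was lower by 3.35. Thus 4 of the 9 genes passed an adjusted p of 0.05 in limma, 3 higher and 1 lower, where 2.28% of all clusters were called higher and 0.68% lower. After quantile normalization those shares were 1.31% and 1.15%, and subtracting array medians shifted the median of all clusters by 0.12. The median difference of the 9 genes was 2.04, and that of all clusters -0.06. At an unadjusted p under 0.05 and a linear fold over 1.1, the design text's criterion, 6 of the 9 were higher and 1 lower, against 10.3% and 6.72% of all clusters. In whole liver, a change in RNA per cell and a change in the share of cells that make it cannot be told apart. Marker levels also differed in mean here. The 4 hepatocyte markers below the array maximum were all lower in ob/ob vehicle liver, with a mean level of 14.96 to 16.41 against 16.45 to 16.79. Tat (-1.66, adjusted p = 0.278 by limma) and Cps1 (-0.95, adjusted p = 0.293) lay wholly below wild type, as 9.78% of all clusters did. Apoa1, at the array maximum in wild type, read lower on every ob/ob vehicle array. Of the 6 measured macrophage markers 3 were higher and 3 lower. Cd5l was 1.46 higher (adjusted p = 0.261 by limma) and lay wholly above wild type, as 9.71% of all clusters did. No marker of either list was called, and the part of cell makeup in the differences of the lipogenesis genes was not tested.

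**Figure D1:**
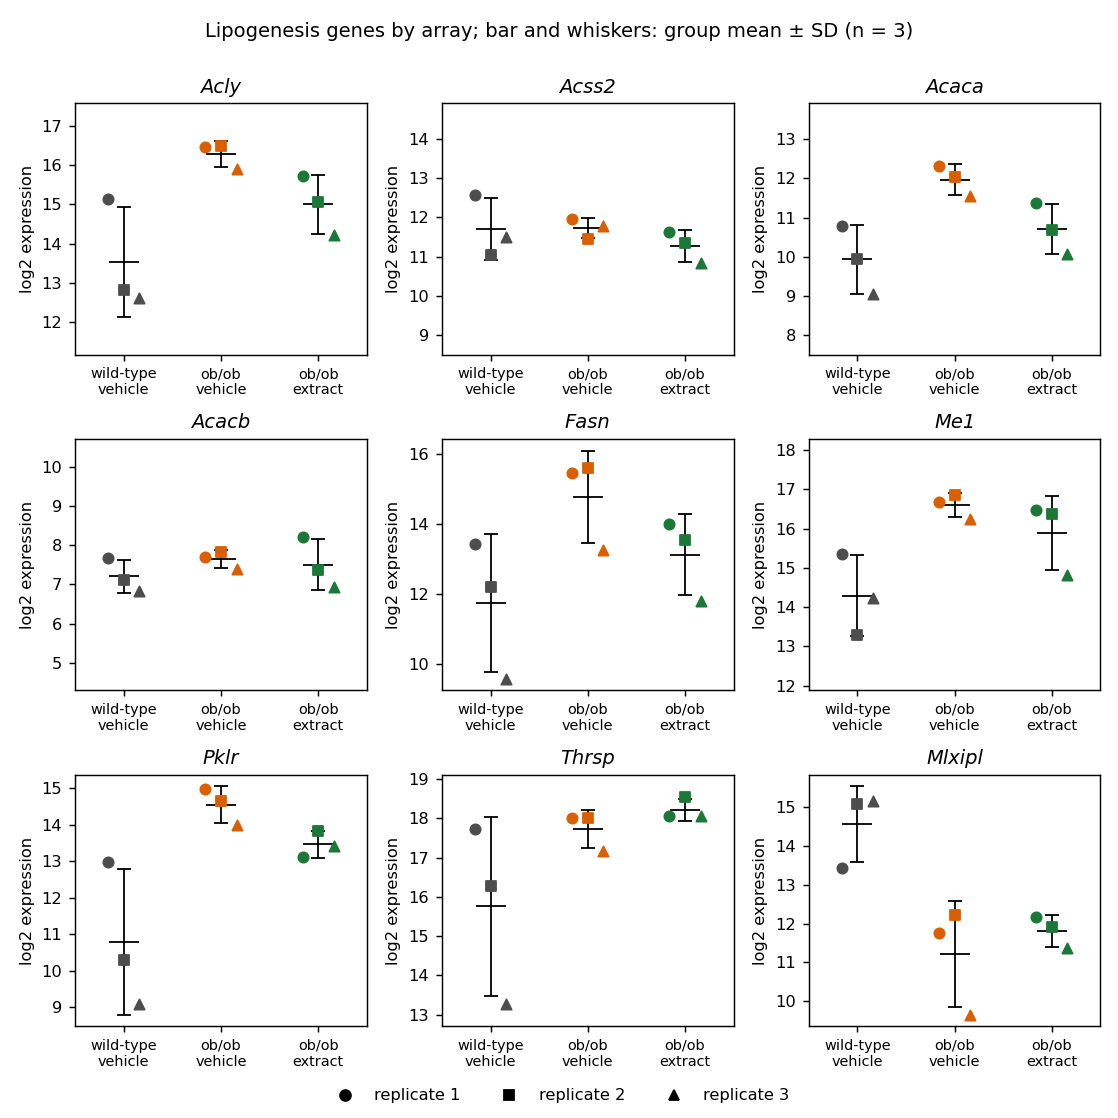
Log2 signal of the 9 measured lipogenesis genes on each array (vertical axis, a panel per gene), by group along the horizontal axis, with a marker shape for each of arrays 1 to 3, and a bar with whiskers for the group mean ± SD (n = 3). The 3 ob/ob vehicle arrays lie above all wild-type arrays for Acly, Acaca, Me1 and Pklr and below them for Mlxipl.

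Pklr encodes liver-type pyruvate kinase, which forms pyruvate in the last step of glycolysis. Its level was 12.98, 10.28 and 9.09 on wild-type arrays 1 to 3, and 14.98, 14.65 and 14.00 on ob/ob vehicle arrays. The groups did not overlap, and wild-type array 1 stood nearest to the obese mice. The difference was 3.76 (SE 0.77, 95% interval 2.05 to 5.47, adjusted p = 0.0320 by limma).

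Acly encodes ATP citrate lyase, the source of cytosolic acetyl-CoA from citrate. It read 15.13, 12.82 and 12.62 in wild type against 16.47, 16.48 and 15.91 in ob/ob vehicle liver. Every obese mouse again lay above every lean mouse, with wild-type array 1 highest among the lean. The difference was 2.76 (SE 0.61, 95% interval 1.40 to 4.12, adjusted p = 0.0426 by limma). Acss2, which makes acetyl-CoA from acetate instead, had 12.57, 11.04 and 11.50 in wild type and 11.97, 11.46 and 11.78 in ob/ob vehicle liver. These overlapped, and the difference of 0.03 (95% interval -0.82 to 0.89, adjusted p = 0.979 by limma) had no stable sign, being -0.43 after quantile normalization.

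Of the acetyl-CoA carboxylase genes, Acaca passed the test and Acacb did not. Acaca, which encodes the cytosolic isoform, was at 10.80, 9.95 and 9.06 in wild type and at 12.33, 12.04 and 11.55 in ob/ob vehicle liver. There was no overlap, and the difference was 2.04 (SE 0.46, 95% interval 1.02 to 3.05, adjusted p = 0.0445 by limma). Acacb encodes the mitochondrial isoform, whose malonyl-CoA blocks carnitine palmitoyltransferase. Its levels were 7.67, 7.11 and 6.84 in wild type and 7.70, 7.83 and 7.38 in ob/ob vehicle liver, with overlap. The Acacb difference was 0.43 (95% interval -0.35 to 1.21, adjusted p = 0.599 by limma), and the difference between the responses of the isoforms was not tested.

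Fasn, which encodes fatty acid synthase, had a large difference that did not pass the test. It was at 13.42, 12.19 and 9.56 in wild type and at 15.45, 15.60 and 13.24 in ob/ob vehicle liver. Wild-type array 1 lay above ob/ob vehicle array 3, and array 3 was the lowest of both groups. The difference was 3.04 (SE 0.96, 95% interval 0.90 to 5.18, adjusted p = 0.134 by limma). It was 1.96 without wild-type array 3. Leaving out 1 array left Fasn not called in 8 of 9 fits (adjusted p up to 0.345 by limma). With each array's interquartile range as a covariate its difference was 1.40 (adjusted p = 0.392). With the replicate number as a block the adjusted p was 0.00467, in a fit that called 2.09% of all clusters higher. Without ob/ob vehicle array 3 it was 0.0352. The block, here and below, rests on a pairing read from these same arrays and not from the labels. It was also applied to the extract arrays, which did not pair by number. Their deviations correlated with those of same-numbered arrays at -0.130, 0.0157 and -0.106 for ob/ob vehicle, and at -0.208, -0.0412 and -0.143 for wild type. What the extract arrays added to the smaller p-values of the block was not tested.

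Me1 encodes cytosolic malic enzyme, which yields NADPH and pyruvate. Its wild-type levels were 15.36, 13.29 and 14.23, and its ob/ob vehicle levels 16.69, 16.85 and 16.26, without overlap. The difference of 2.31 (SE 0.55, 95% interval 1.09 to 3.53) had an adjusted p of 0.0535 by limma. It passed with the replicate block (adjusted p = 0.0411) and in other alternatives. It was not called in 6 of 9 fits leaving out 1 array (adjusted p up to 0.182 by limma). Quantile normalization (0.0970) and fitting only the groups compared (0.0910) did not call it either. Groups without overlap were thus seen in 4 genes in the higher direction (Acly, Acaca, Me1 and Pklr), against 9.71% of all clusters, and in 1 in the lower direction (Mlxipl), against 9.78%.

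Thrsp encodes the thyroid hormone responsive protein Spot 14, a small protein that promotes lipogenesis. Wild-type arrays gave 17.73, 16.29 and 13.26, the widest range of the 9 lipogenesis genes within a group, and ob/ob vehicle arrays gave 18.01, 18 and 17.18. The groups overlapped, since wild-type array 1 exceeded ob/ob vehicle array 3. The difference was 1.97 (95% interval 0.06 to 3.88, adjusted p = 0.278 by limma), and 0.72 without wild-type array 3.

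Mlxipl encodes ChREBP, the glucose-sensing factor for which Pklr is a known target. It ran the other way: 13.43, 15.09 and 15.16 in wild type against 11.76, 12.23 and 9.65 in ob/ob vehicle liver. Every obese mouse lay below every lean one, and the wild-type array that was highest for the enzymes, array 1, was the lowest for Mlxipl. The difference was -3.35 (SE 0.65, 95% interval -4.79 to -1.90, adjusted p = 0.0267 by limma). Mlxipl has a first and a second listed start, and its single cluster gives a level for the gene that does not separate their transcripts.

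The direction of these 4 called differences was kept in every alternative run, and their adjusted p-values were not. Leaving out 1 array ended the call for Acly, Acaca and Pklr in 7 of 9 fits, with an adjusted p up to 0.164, 0.159 and 0.129, and for Mlxipl in 4 of 9, up to 0.117. Those calls were kept without ob/ob vehicle array 3 and without wild-type array 1, and Mlxipl was also kept without extract arrays 1 and 3 and without ob/ob vehicle array 2. After quantile normalization, Acaca (adjusted p = 0.0805) and Acly (0.0670) were not called. None of the 4 was called when only the groups compared were fitted, and only Mlxipl when each array's interquartile range was a covariate.

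**Figure D2:**
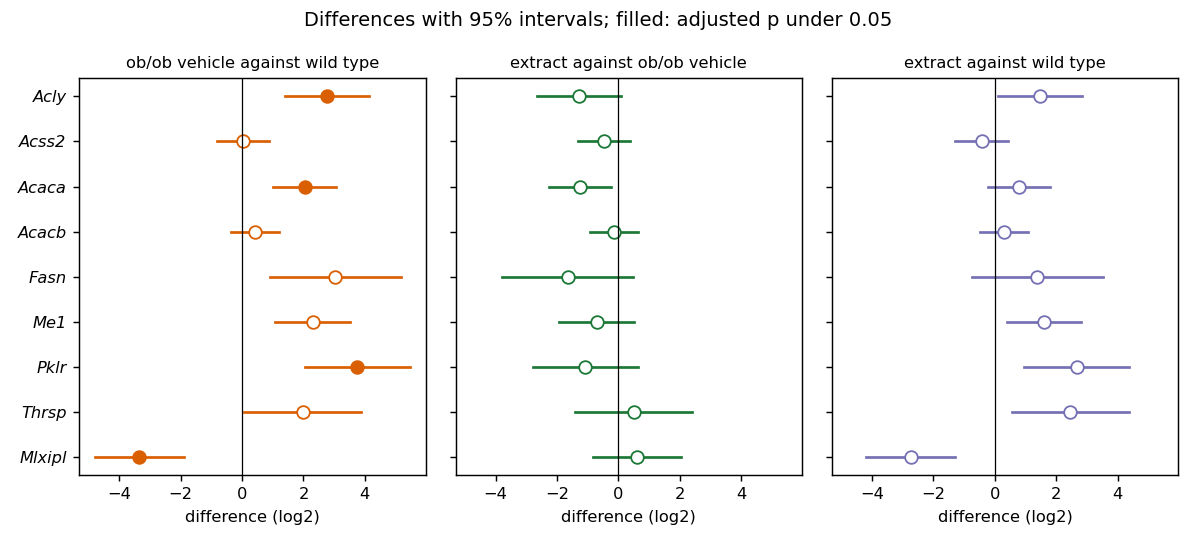
Difference in log2 signal for each measured lipogenesis gene in the 3 comparisons, with 95% intervals from limma, and filled symbols where the adjusted p was under 0.05. Pklr, Acly and Acaca lie above 0 and Mlxipl lies below 0 in ob/ob vehicle against wild type, and no symbol is filled in the other comparisons.

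The effect of the extract was read within obese liver, against vehicle. None of the 9 lipogenesis genes passed the adjusted test between extract and ob/ob vehicle, and neither did any of the 22206 clusters (0%). Acly, Acaca, Fasn, Pklr, Me1, Acss2 and Acacb had lower means with the extract, with differences of -0.13 to -1.66, while Thrsp and Mlxipl had higher means. The median difference of the 9 was -0.71, and that of all clusters -0.01. At an unadjusted limma p under 0.05 and a linear fold over 1.1 there was 1 gene, Acaca, lower and none higher, against 2.9% and 3.56% of all clusters. This comparison shares the ob/ob vehicle arrays with the previous one, so a high value in them raises one difference and lowers the other.

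Acaca read 11.37, 10.69 and 10.08 on extract arrays 1 to 3, against 12.33, 12.04 and 11.55 without it. All extract arrays lay below all vehicle arrays. The difference was -1.26 (SE 0.46, 95% interval -2.28 to -0.24, unadjusted p = 0.0198, adjusted p = 0.741 by limma). Acly was at 15.73, 15.05 and 14.21 with the extract, also under every ob/ob vehicle array. Its difference was -1.29 (95% interval -2.65 to 0.07, adjusted p = 0.775 by limma).

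Pklr was at 13.11, 13.83 and 13.42 with the extract, below all 3 vehicle arrays, a difference of -1.09 (95% interval -2.80 to 0.62, adjusted p = 0.846 by limma). Extract groups lying wholly below vehicle were therefore seen in 3 of 9 genes (Acly, Acaca and Pklr), against 6.08% of all clusters. Fasn had the largest difference in means, -1.66, but levels of 14.00, 13.52 and 11.80 overlapped those of vehicle (95% interval -3.79 to 0.48, adjusted p = 0.824 by limma). Without ob/ob vehicle array 3 and wild-type array 3, which stood apart on all clusters, the Fasn difference was -2.42 (adjusted p = 0.0570). That of Acaca was -1.47 (adjusted p = 0.0810), both by limma and still not called. That alternative was chosen with earlier results of these data known. Leaving out each array in turn gave -2.42 to -1.003 for Fasn and -1.59 to -0.94 for Acaca. For both genes the smallest difference came without extract array 3.

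Me1 was at 16.49, 16.38 and 14.81 with the extract, where arrays 1 and 2 lay within the vehicle range and array 3 below it. Its difference was -0.71 (95% interval -1.93 to 0.51, adjusted p = 0.851 by limma). Of the enzyme genes, Acss2 and Acacb had the smallest differences in mean. Acss2, at 11.64, 11.34 and 10.84, differed by -0.46 (95% interval -1.32 to 0.39) and Acacb, at 8.21, 7.37 and 6.93, by -0.13 (95% interval -0.92 to 0.65). Both overlapped vehicle.

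Thrsp and Mlxipl differed in sign from the enzymes. Thrsp read 18.06, 18.55 and 18.05 with the extract, above every vehicle array, as 7.47% of all clusters did. The difference was 0.49 (95% interval -1.42 to 2.40, adjusted p = 0.946 by limma). Mlxipl read 12.18, 11.91 and 11.36, inside the range of vehicle, with a difference of 0.60 (95% interval -0.84 to 2.05, adjusted p = 0.892 by limma) that became -0.18 without ob/ob vehicle array 3.

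Macrophage markers also differed in mean between these groups. Over the 6 measured of 7 macrophage markers the mean level was 6.88 to 7.65 on ob/ob vehicle arrays and 5.92 to 7.11 on extract arrays, with 5 of the 6 lower in mean, and none was called. The Kupffer cell marker Cd5l differed by -2.13 (adjusted p = 0.707 by limma) and Adgre1, the F4/80 macrophage antigen, by -1.05 (adjusted p = 0.741). The 4 hepatocyte markers below the array maximum averaged 14.96 to 16.41 on ob/ob vehicle and 15.28 to 16.67 on extract arrays, and 3 of the 4 had higher means with the extract. The part of these cells in the differences was not tested either.

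Treated obese liver was also compared with lean liver. No lipogenesis gene was called, against 0.977% of clusters called higher and 0.315% called lower. At an unadjusted limma p under 0.05 and a linear fold over 1.1, 4 genes were higher (Acly, Me1, Pklr and Thrsp) and 1 lower (Mlxipl), against 8.21% and 5.82% of all clusters. The median difference was 1.38, and that of all clusters -0.05. The wild-type arrays are those of the first comparison and the extract arrays those of the second.

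Pklr had a difference of 2.67 (SE 0.77, adjusted p = 0.152 by limma), with every extract array above every wild-type array. Thrsp, without overlap too, differed by 2.46 (adjusted p = 0.228 by limma), so 2 of 9 genes lay wholly above wild type, against 11.1% of all clusters. Mlxipl differed by -2.74 (SE 0.65, 95% interval -4.19 to -1.30, adjusted p = 0.0845 by limma), and lay wholly below wild type, as 10.6% of all clusters did.

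Mlxipl was called in this comparison without ob/ob vehicle array 3 and without wild-type array 1. Me1 differed by 1.60 (adjusted p = 0.219), Acly by 1.47 (0.318), Fasn by 1.38 (0.552) and Acaca by 0.78 (0.483), all by limma. Acly and Pklr were called without wild-type array 1 (adjusted p = 0.0343 and 0.00539). Acss2 (-0.43, adjusted p = 0.659) and Acacb (0.30, adjusted p = 0.746) were the closest to 0 in mean. A call in ob/ob vehicle and none in extract against the same wild-type arrays does not show that the groups differ, which the direct comparison tested.

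Most of the lipogenesis genes had the same array as the highest or lowest of a group. Wild-type array 1 was the highest of its group for 8 of the 9 genes, all but Mlxipl, for which it was the lowest, while it was the highest for 53.4% of the 4585 clusters with a mean level over 8. Ob/ob vehicle array 3 was the lowest of its group for 8 genes, all but Acss2, against 55.6% of those clusters. Extract array 3 was the lowest for 8 genes, all but Pklr, against 25.7%. Extract array 1 was the highest for 7, all but Pklr and Thrsp, against 26.2%. These positions describe the arrays and were not tested.

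**Figure D3:**
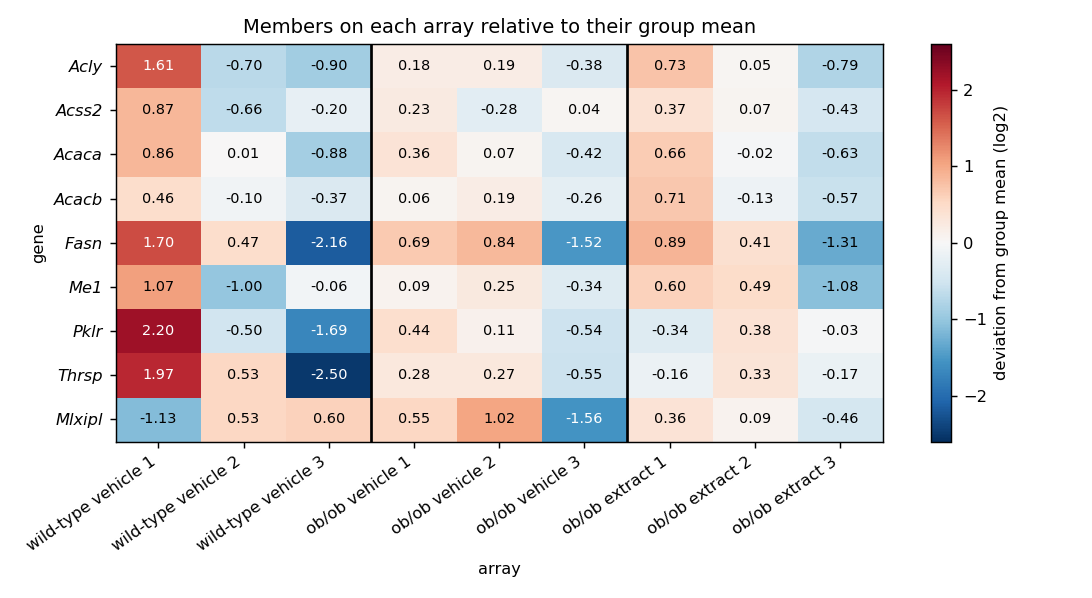
Deviation of each array from its group mean in log2 signal (colour and printed value) for the 9 measured lipogenesis genes, rows being genes and columns arrays by group. Wild-type array 1 is above its group mean for every gene but Mlxipl, and extract array 3 is below its group mean for all 9 genes, least for Pklr.

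Several of the genes varied widely among lean mice. The SD over the 3 wild-type arrays was 2.28 for Thrsp, 1.99 for Pklr and 1.97 for Fasn, larger than for 99.8%, 99.6% and 99.5% of the 4585 clusters, whose median SD was 0.42. In ob/ob vehicle liver the SD of Thrsp was 0.48 and that of Pklr 0.50, near the median of 0.48 there, and Fasn (1.32) and Mlxipl (1.37) varied most. With the extract Fasn had the largest SD, 1.16, and Thrsp and Pklr had 0.29 and 0.36.

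The steps around the pathway were read from 6 lists of 64 genes, 56 of them measured. Over all clusters the median difference between ob/ob vehicle and wild type was -0.06, beside which the medians of the lists are to be read. The lists were not tested against other genes. The carbon supply list, glucose and fructose use up to citrate export, had 2 of 11 measured genes called higher in ob/ob vehicle liver and none lower (2.28% and 0.68% of all clusters), with a median difference of 1.41. Khk, the fructokinase, was at 12.85, 12.01 and 11.46 in wild type and 14.16, 14.49 and 14.25 in ob/ob vehicle liver (2.19, SE 0.40, adjusted p = 0.0190 by limma). Tkfc, the triokinase that follows it in fructose breakdown, differed by 1.83 (adjusted p = 0.0452 by limma). Pcx, pyruvate carboxylase, differed by 2.03 without passing (adjusted p = 0.0559 by limma), and passed with the replicate block (0.0182). Khk and Tkfc were also called higher in extract against wild type (adjusted p = 0.0471 and 0.0366 by limma), as was Taldo1 of the next list (1.54, adjusted p = 0.0490), where 0.977% of all clusters were called higher.

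Among 6 measured NADPH genes, 1 was called higher and none lower in ob/ob vehicle liver (2.28% and 0.68% of all clusters), with a median difference of 0.37. This was Taldo1, the transaldolase of the pentose phosphate pathway, at 8.29, 7.40 and 7.71 in wild type and 10, 10 and 9.09 in ob/ob vehicle liver (1.9, SE 0.32, adjusted p = 0.0142 by limma). Pgd, 6-phosphogluconate dehydrogenase, differed by 1.63 without passing (adjusted p = 0.139 by limma). Downstream, in elongation and desaturation, 1 of 9 was called higher and none lower (2.28% and 0.68% of all clusters), with a median difference of 1.10. Elovl6, which lengthens palmitate to stearate, had the largest difference of all lists, from 12.54, 10.45 and 9.16 to 17.01, 17.05 and 14.39 (5.43, SE 0.87, adjusted p = 0.0117 by limma). Elovl5 differed by 3.32 (adjusted p = 0.0668, and 0.0391 with the replicate block). Scd1, the stearoyl-CoA desaturase, was looked up outside the naming rule and stood at the highest value of each of the 9 arrays, so the array cannot show a rise in it.

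Genes that modify the carboxylase and synthase proteins, such as AMPK subunits, had 0 of 11 called by limma, and 4 of 11 at an unadjusted p under 0.05 and a linear fold over 1.1, 3 higher and 1 lower, against 10.3% and 6.72% of all clusters. The AMPK subunit gene Prkag1 came nearest, at 1.29 (adjusted p = 0.0629). In the SREBP and LXR list, 1 of 11 was called higher and none lower (2.28% and 0.68% of all clusters), with a median difference of 0.23. Insig2, which retains SREBP in the endoplasmic reticulum, was at 8.18, 7.45 and 8.52 in wild type and 10.67, 10.52 and 9.70 in ob/ob vehicle liver (2.25, SE 0.40, adjusted p = 0.0182 by limma). Nr1h3, encoding LXR alpha, differed by 1.00 (adjusted p = 0.247 by limma).

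Of 8 partners and targets of ChREBP, 1 was called higher and none lower (2.28% and 0.68% of all clusters), with a median difference of 0.58. Gpd1, glycerol-3-phosphate dehydrogenase, which links glycolysis to the glycerol of triglycerides, was at 14.91, 14.04 and 14.52 in wild type and 17.54, 17.78 and 16.59 in ob/ob vehicle liver, with no overlap (2.81, SE 0.40, adjusted p = 0.00601 by limma). Its call was kept whichever array was left out. Leaving out ob/ob vehicle array 1 or 2 or wild-type array 2 ended the calls of Khk, Tkfc, Taldo1, Elovl6 and Insig2, with adjusted p-values up to 0.0844, 0.146, 0.0759, 0.0646 and 0.0834, and other single arrays ended those of Khk and Tkfc too. The alternatives other than leaving out 1 array ended a call of a list gene 6 times. Among these, fitting only the groups compared ended the calls of Tkfc, Taldo1 and Elovl6, and quantile normalization that of Tkfc (adjusted p = 0.0763). Mlx, the dimer partner of ChREBP, differed by 0.89 (adjusted p = 0.252) and Arrdc4, a known ChREBP target, by 0.58 (adjusted p = 0.388), neither passing.

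**Figure D4:**
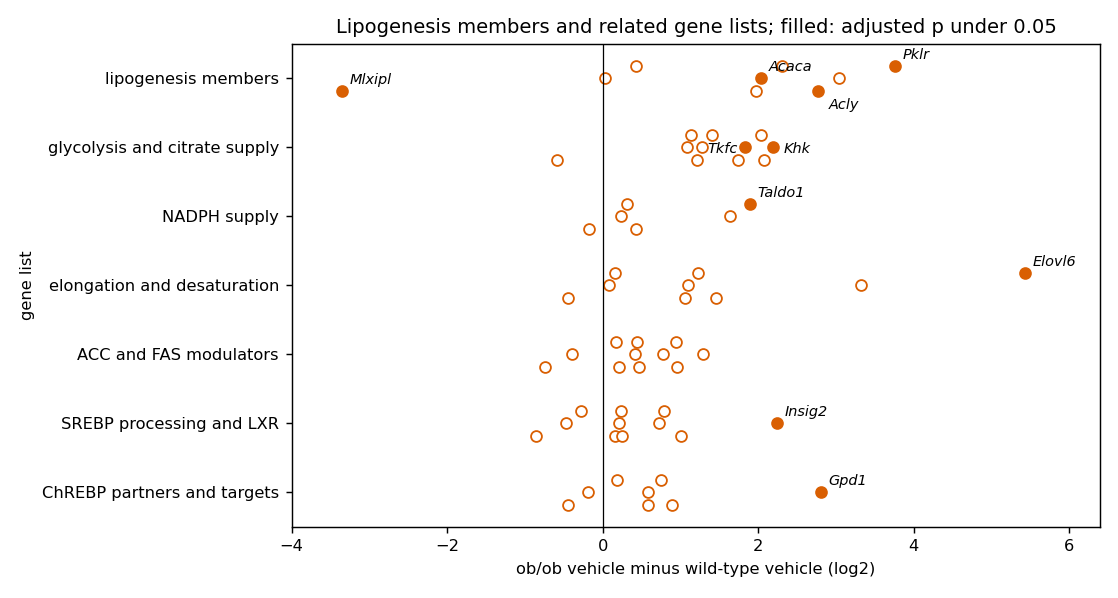
Difference in log2 signal between ob/ob vehicle and wild type (horizontal axis) for the measured lipogenesis genes and the measured genes of the 6 related lists (rows), each point being 1 gene and filled where the adjusted p was under 0.05. The filled points are Pklr, Acly, Acaca and Mlxipl, and in the lists Khk, Tkfc, Taldo1, Elovl6, Insig2 and Gpd1.

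With the extract, none of the 56 list genes was called against ob/ob vehicle by limma, as none of all clusters was (0%). At an unadjusted limma p under 0.05 and a linear fold over 1.1, 1 was lower, Gpd1 (-0.94, adjusted p = 0.767), and none higher. The shares of all clusters were 2.9% and 3.56%. In the elongation and desaturation list, leaving out Scd1 at the array maximum, 8 of 8 genes had lower means, with a median of -0.82 against -0.01 for all clusters. Elovl6 read 14.54, 13.87 and 15.17 with the extract (-1.62, adjusted p = 0.798) and Elovl1, a very long chain elongase, 9.40, 9.23 and 9.53 (-1.13, adjusted p = 0.771). Without ob/ob vehicle array 3 and wild-type array 3, an alternative chosen with earlier results of these data known, Elovl1 (-1.73, adjusted p = 0.00895), Elovl5 (-2.17, 0.0469) and Elovl6 (-2.50, 0.0425) were called lower, in a fit that called 1.41% of all clusters lower where the fit with all arrays called 0%. Array 3 of ob/ob vehicle was the lowest of its group for all 3 genes. Mlycd, malonyl-CoA decarboxylase, which removes the product of the carboxylases, differed by 0.80 (adjusted p = 0.784) and Insig1, which also retains SREBP, by -0.97 (adjusted p = 0.781).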

How the data were processed

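Values are log2 signals deposited by the authors, made per the design text with SST-RMA in Transcriptome Analysis Console 4.0.2; the submitters' processing notes name RMA and version 4. About 100 ng of RNA was labelled per array. Gene names come from GEO's platform annotation: 19572 clusters have 1 symbol, and all of their Entrez identifiers matched RefSeq (GRCm38.p6). The array's own build is not given in the sources used here. Detection calls were not used. The authors' threshold was an unadjusted p-value under 0.05 with a linear fold over 1.1.

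With limma 3.58.1 in R 4.3.3, a mean per group was fitted to all 9 arrays with default empirical Bayes (6 residual degrees of freedom) and Benjamini-Hochberg adjustment over 22206 clusters. The code was tested on simulated data. P-values measure only the spread between these arrays, whose number limits the precision. Intervals are 95%. Promoter sequences and motif counts come from RefSeq.

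The genes, lists and tests were chosen with earlier results of these data known. All lipogenesis genes are named, and of each list up to 3 genes with the smallest p in ob/ob vehicle against wild type and in extract against ob/ob vehicle. Lists were described by counts and medians, without a set test.

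Same-numbered wild-type and ob/ob vehicle arrays deviated together from their group means (r = 0.256, 0.262 and 0.450), so by a limit of 0.1 for every pair the numbers were taken to pair these arrays, from the data and not the labels; 5 of the 6 correlated best with their own number. Alternatives were other scalings, filters on low values, arrays, weights, priors, the block, the call rule, and each array left out.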

Additional observations from a re-analysis of the deposited data

How the results depend on the processing

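Of the 9 lipogenesis genes, 4 were called in ob/ob vehicle against wild type. There were 2 after quantile normalization, 0 when only those groups were fitted, 1 with each array's interquartile range as a covariate, and 7 (6 higher, 1 lower) under the design text's criterion of unadjusted p and fold. Leaving out each array gave 0 to 6: 0 without extract 2, ob/ob vehicle 1, wild type 2 or wild type 3, and 6 without ob/ob vehicle 3. The replicate block gave 6, adding Fasn and Me1, in a fit that called 2.09% of all clusters higher. The main fit called 2.28% of clusters higher and 0.68% lower, and that after quantile normalization 1.31% and 1.15%. For most other fits the share of all clusters is not given here, so their counts cannot be set against it. For extract against ob/ob vehicle, 0 were called in every alternative but the design text's criterion, which gave 1. Without ob/ob vehicle 3 and wild-type 3, 1.41% of all clusters were called lower in that comparison. For extract against wild type, 0 became 1 with only those groups, 2 with array weights, 1 with the interquartile range, 1 without ob/ob vehicle 3 and wild-type 3, 5 under the criterion, and 0 to 3 leaving out each array. In both extract comparisons the replicate block called 0 genes, and 0 of 6 arrays correlated best with their own number. Acss2 in ob/ob vehicle against wild type reversed to -0.43 with quantile normalization, -0.09 without ob/ob vehicle 3 and wild-type 3, and -0.0245 with the interquartile range, and ranged from -0.30 to 0.47 leaving out each array. With the extract against ob/ob vehicle, Mlxipl reversed to -0.10 with array weights and -0.18 without those 2 arrays, and leaving out each array gave -0.18 to 1.11 for Mlxipl and -0.49 to 0.15 for Acacb. Against wild type those ranges were -0.0567 to 0.58 for Acacb and -0.76 to 0.00333 for Acss2. The causes were not tested. No gene had several clusters, so the mean over clusters was not run.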
